A study of Mus musculus with 56 samples.

Results

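The 7 genes described here belong to the hepatic urea cycle and its ammonia supply: Cps1, Otc, Ass1 and Asl, which encode enzymes of the cycle, Nags, which makes the activator of Cps1, Slc25a15, which carries ornithine into mitochondria, and Gls2, the liver glutaminase. They were chosen by name, as 7 of the 21888 gene symbols measured by RNA-seq in mouse liver, and each had a single row in the table. All 7 passed the filter, a mean level of 1 or more in FPKM (sequenced fragments scaled to transcript length and library depth), as did 11354 symbols in all.

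The study removed miR-122, the most abundant microRNA of the hepatocyte, from adult mouse liver and followed the RNA over time. Livers of 14 mice of the 129Sv/J background were sequenced. The reference group, called day 0, was 3 uninjected mice carrying loxP sites around miR-122. Mice with the same floxed allele received rAAV8-Ef1a-Cre, a viral vector that expresses the Cre recombinase from the general Ef1a promoter rather than a hepatocyte promoter, and were taken after 21 days (3 mice), 45 days (3 mice), 100 days (1 mouse) and 200 days (1 mouse). A further 3 mice came from a miR-122 knockout line, with no Cre vector named in their labels. The labels give no sex and no age, and nothing says that mice sharing a letter (A, B or C) are related. No floxed mouse with a vector lacking Cre was among these 14 libraries, so vector and excision cannot be told apart, and the knockout mice differed from the day 0 mice in line and not only in miR-122.

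The liver turns ammonia, which is released when amino acids are broken down, into urea. In the mitochondrion Cps1 joins ammonia and bicarbonate into carbamoyl phosphate, which Otc adds to ornithine to make citrulline, and in the cytosol Ass1 and Asl convert citrulline through argininosuccinate to arginine, from which urea is released. Cps1 is inactive without N-acetylglutamate, the product of Nags. These genes are best expressed in periportal hepatocytes, where Gls2 also frees ammonia from glutamine, whereas the pericentral hepatocytes around the central vein hold glutamine synthetase (Glul), which captures the ammonia that escapes the cycle, and the ornithine aminotransferase Oat.

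Loss of the microRNA was seen in small RNA libraries of floxed livers of the same groups, which nothing says are the same mice. miR-122 made up 73.3%, 59.2% and 66.7% of depth-scaled microRNA reads at day 0, 8.22% to 13.2% at day 21, 0.383% to 1.23% at day 45, 4.46% in the day 100 library and 19.1% in the day 200 library. No small RNA library of the knockout mice was analysed here. The RNA-seq libraries held an estimated 25.1 to 53.8 M fragments, and the lowest level of any of the 7 genes in any library corresponded to about 1190 fragments, so that counting error was small beside the spread between mice.

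Of 20 hepatocyte markers, 16 were above 0 in every library, whereas Alb was listed at 0 in all 14, Trf in 11 and Ahsg in 6, so a value of 0 in this table can be a failed estimate. None of the 7 genes was at 0 in any library. Knockout mice A and B stood apart from the other libraries. Over the tested genes their log2 values correlated with each other at 0.986 but with knockout mouse C at 0.881 and 0.895, whose closest library was day 45 mouse A, at 0.955. In mice A and B the difference from day 0 followed the GC content of the transcript, with a median log2 difference of -0.98 and -0.74 in genes with up to 44.5% GC and of 0.72 and 0.71 in genes with 55.9% GC or more, while in mouse C these medians were 0.093 and -0.0052. Results on the members in the knockout are therefore given for each mouse and with mouse C as the only knockout mouse. In that fit a lone mouse is assumed to vary like the other groups, so its p-values measure no spread among knockout mice.

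Markers of several other cell types were higher at day 45, when the test was passed by 8 of 9 tested cholangiocyte, 11 of 12 stellate cell and fibroblast, 14 of 14 macrophage and monocyte and 9 of 10 lymphocyte markers, but by 3 of 10 endothelial and 0 of 4 erythroid markers, beside 23.7% of all tested genes called higher. The summed FPKM of 10 cholangiocyte markers was 51.4 to 66.8 at day 0, 146 to 210 at day 21, 420 to 1371 at day 45, 2965 at day 100, 1957 at day 200 and 572 to 845 in the knockout. Over the same groups the 12 stellate cell and fibroblast markers summed to 152 to 205, 328 to 338, 426 to 711, 706, 702 and 243 to 340, and the 14 macrophage and monocyte markers in the table to 280 to 505, 710 to 929, 984 to 1133, 1053, 1210 and 372 to 947. None of the cholangiocyte, stellate cell, fibroblast, macrophage and monocyte markers was at 0 in any library. The 6 erythroid markers summed to 122 to 159 at day 0 and 175 to 839 in the knockout, where 0 of 4 tested passed. The 10 endothelial markers summed to 115 to 200 and 108 to 134. Of these 3 were lower and 1 higher in the knockout, beside 14.5% and 19.3% of all tested genes. The 16 hepatocyte markers summed to 60717 to 73714 at day 0, 54038 to 57802 at day 21, 47823 to 54628 at day 45, 40434 at day 100, 53886 at day 200 and 59721 to 68353 in the knockout. Sums of this kind follow the most abundant markers. Of the 18 tested hepatocyte markers 1 was lower at day 45 and 17 did not pass, with a median log2 difference of -0.28. Of all tested genes 2.99% were lower, and their median was 0.20. The part of these shifts in the results on the 7 genes was not tested, and in bulk liver fewer cells of a type and less RNA per cell cannot be told apart.

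Promoter windows of the RefSeq table (GRCm38.p6, 250 bases upstream of the start to 50 downstream) matched 4 of the 7 genes, Otc, Ass1, Nags and Slc25a15, the last with 2 windows. The upstream 250 bases of Otc, on the plus strand at chrX:10252055-10252304, and of Ass1, on the plus strand at chr2:31470020-31470269, are shown because these genes had the lowest and the highest difference from day 0 of the 7 in knockout mice A and B. Capitals mark matches on either strand to TTNCNNAA, the core bound by C/EBP factors, which regulate urea cycle genes in hepatocytes.
Otc: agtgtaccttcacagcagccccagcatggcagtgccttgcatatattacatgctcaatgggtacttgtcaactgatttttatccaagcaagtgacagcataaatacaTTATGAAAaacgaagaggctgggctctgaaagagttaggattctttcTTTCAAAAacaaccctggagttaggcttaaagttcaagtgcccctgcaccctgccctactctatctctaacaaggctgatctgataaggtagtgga
Ass1: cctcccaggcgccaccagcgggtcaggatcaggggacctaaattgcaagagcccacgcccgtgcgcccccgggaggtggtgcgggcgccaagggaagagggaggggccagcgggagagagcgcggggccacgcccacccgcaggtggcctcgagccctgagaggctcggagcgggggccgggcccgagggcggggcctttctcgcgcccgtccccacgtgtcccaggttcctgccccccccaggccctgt

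The Otc window held TTNCNNAA at -143 and -96 from the start and the Nags window at -231, while the Ass1 and Slc25a15 windows held none. TGACG, the core of the cAMP response element, occurred in the Nags window at 31 bases past the start. The glucocorticoid receptor motif TGTTCT, the HNF4 motif CAAAGTCC and the core promoter motif TATAAA were in none of these windows. Of 32851 mouse promoter windows of this length, 40.7% held TTNCNNAA, 20.8% TGACG, 19.0% TGTTCT, 1.42% CAAAGTCC and 13.6% TATAAA, and a match describes the letters of a window only.

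In the uninjected liver the 7 genes spanned a wide range of levels per length. Cps1 was highest, at 943 FPKM ± 200 (SD, n = 3). Otc (314 FPKM), Asl (238 FPKM), Gls2 (146 FPKM) and Slc25a15 (114 FPKM) followed in that order with no overlap between neighbours, and Nags (52.4 FPKM) and Ass1 (43.2 FPKM) were lowest and overlapped each other. By group mean, Cps1 was also highest at days 21, 45, 100 and 200, and Gls2, at rank 4 of 7 at day 0, had rank 5 in each of those groups.

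**Figure D1:**
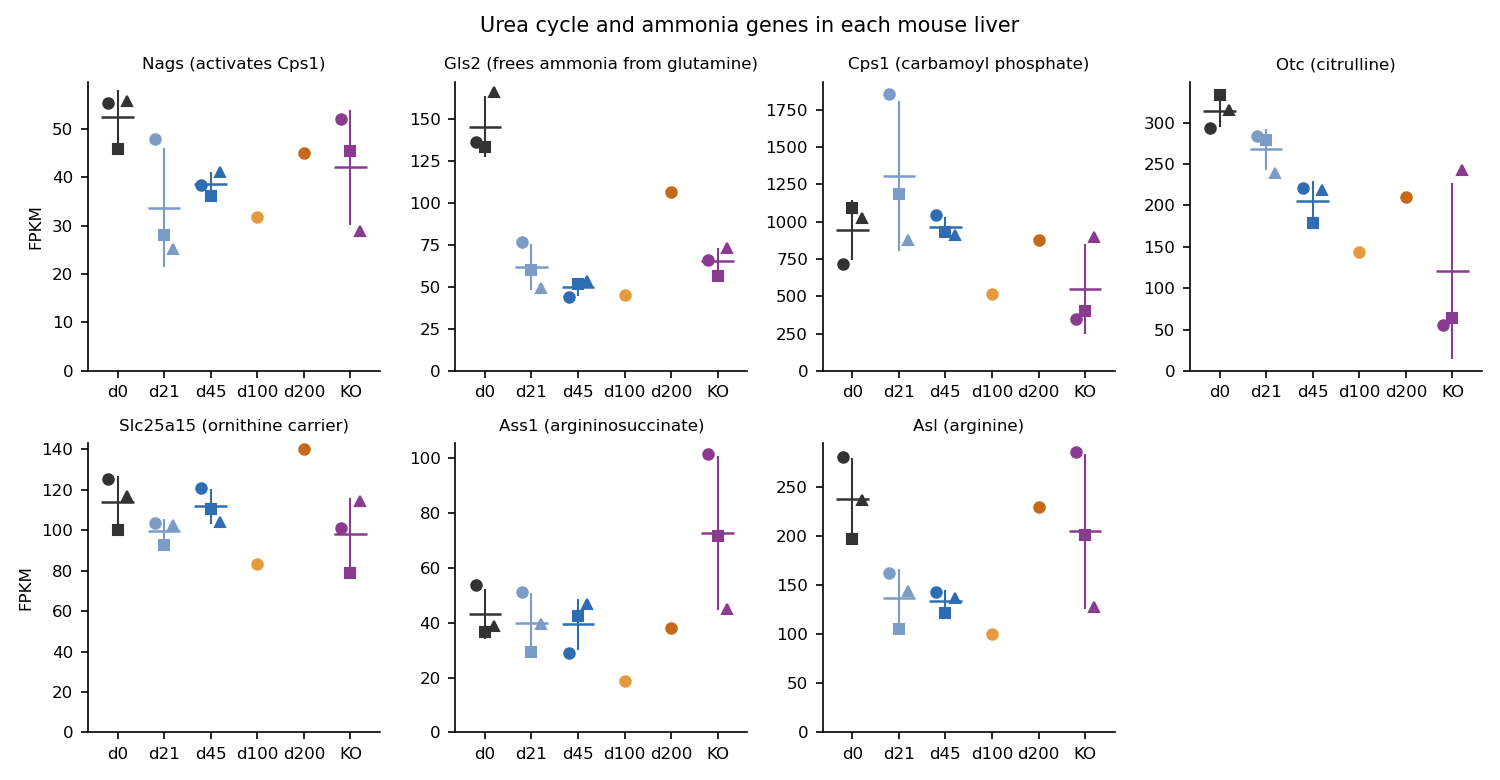
FPKM of the 7 genes (vertical axes, each from 0) in each of 14 mouse livers by group (d0, uninjected; d21 to d200, days after Cre; KO, miR-122 knockout), with circles, squares and triangles for mice A, B and C, a horizontal bar for the mean and a vertical line for ± 1 SD in groups of 3. Gls2 lay between 134 and 166 at day 0 and between 43.8 and 53.8 at day 45, and Otc in knockout mice A and B, at 55.0 and 63.4, lay far under mouse C, at 243.

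Gls2 was the member whose fall after Cre passed the test at each time. Measured against day 0 by limma on log2(FPKM + 1), with p-values adjusted by the Benjamini-Hochberg method over the 11354 genes, Gls2 was 1 of 7 members lower than day 0 in the day 21 mice, in the day 45 mice and in the joined day 100 and day 200 mice, and no member was higher. At an unadjusted p under 0.05 the counts were 3, 2 and 1 of 7, beside 21.7%, 37.3% and 41.4% of all tested genes in either direction. The shares of all tested genes called lower in these comparisons were 1.42%, 2.99% and 3.21%, and the shares called higher were 6.20%, 23.7% and 28.4%. Single mice moved these shares by over 1.5 times. At day 21 the lower share was 0.361% to 0.652% without any 1 of day 0 mice A, B and C and day 21 mice B and C, and the higher share was 1.74% to 2.96% without any 1 of these but day 0 mouse C. At day 45 the lower share was 1.28% to 1.98% without day 0 mouse A, day 0 mouse C or day 45 mouse B, and the higher share 14.4% without the last. At days 100 and 200 they were 0.617% and 13.7% without the day 100 mouse. The median log2 difference of the 7 members was -0.23, -0.43 and -0.63, beside 0.061, 0.20 and 0.31 over all tested genes. The last of the member medians was -0.16 without the day 100 mouse and -1.12 without the day 200 mouse. Scaled to the hepatocyte markers, the members had -0.033, -0.13 and -0.33, beside 0.22, 0.46 and 0.57. Corrected for GC content and transcript length they had -0.35, -0.78 and -1.13, beside -0.063, -0.091 and -0.11. Of the 7 differences 6, 6 and 7 were below 0, beside 42.1%, 29.5% and 25.4% of all tested genes. With each library scaled to the hepatocyte markers 4, 4 and 6 of the 7 were.

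Gls2 lies at chr10:127631513-127647060 on the plus strand (mm9), with 18 exons in its longest GENCODE transcript. Its level was 137, 134 and 166 FPKM in day 0 mice A, B and C, 76.6, 60.2 and 49.3 FPKM at day 21, and 43.8, 51.9 and 53.8 FPKM at day 45. It was 45.2 FPKM at day 100 and 107 FPKM at day 200. Every Cre-treated mouse was thus below every uninjected mouse, and the day 200 mouse came closest to them.

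The log2 difference of Gls2 from day 0 was -1.23 ± 0.27 (SE, n = 3 and 3, adjusted p = 0.0169) at day 21 and -1.53 ± 0.27 (SE, n = 3 and 3, adjusted p = 0.00181) at day 45, which is 2.88-fold lower. At days 100 and 200 joined it was -1.05 ± 0.30 (SE, n = 2 and 3, adjusted p = 0.0183). The day 45 call stood in all 16 alternative fits, with log2 differences from -1.97 to -1.23 and a highest adjusted p of 0.00874. The day 21 call was lost without day 0 mouse A, B or C (adjusted p = 0.0538, 0.0563 and 0.0578) and without day 21 mouse B or C (0.0585 and 0.0821). The late call was lost without day 0 mouse C (0.0577) and without the day 100 mouse, when the day 200 mouse alone differed from day 0 by -0.43 (adjusted p = 0.338). It was also lost under hepatocyte scaling (-0.75, adjusted p = 0.0513) and with only the day 0, day 100 and day 200 libraries fitted (0.0615).

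**Figure D2:**
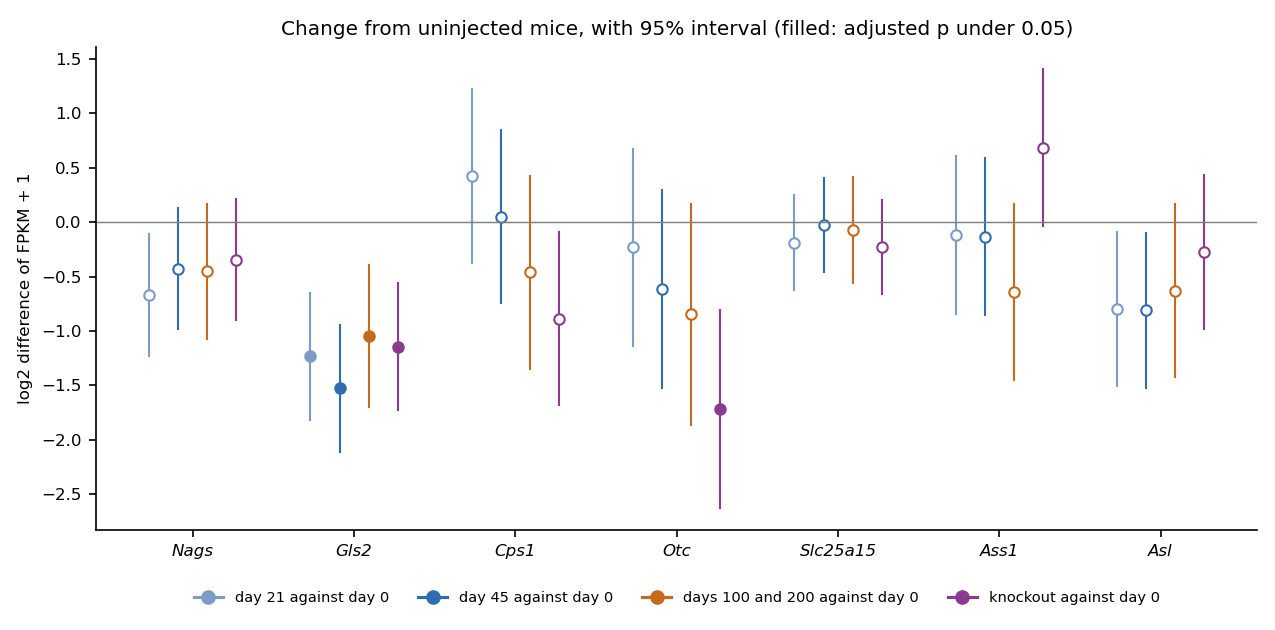
log2 difference of FPKM + 1 from the uninjected mice (vertical axis) for each of the 7 genes (horizontal axis) at day 21, day 45, days 100 and 200 joined and in the knockout, with lines for the 95% interval and filled points for an adjusted p under 0.05. Gls2 is filled in all 4 comparisons, Otc in the knockout comparison alone, and the other 5 genes in none.

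Otc, which makes citrulline in the mitochondrion and lies on the X chromosome at chrX:9829431-9898150 (mm9, plus strand, 10 exons), had its highest levels at day 0, with 294, 333 and 316 FPKM in mice A, B and C. It was 284, 280 and 240 FPKM at day 21 and 220, 179 and 218 FPKM at day 45. Levels at days 100 and 200 were 144 and 210 FPKM. Every Cre-treated mouse was below the 3 uninjected mice, and the day 45 mice were below the day 21 mice without overlap. Day 45 against day 21 did not pass the test (-0.38 ± 0.42, SE, n = 3 and 3, adjusted p = 0.73). The log2 difference from day 0 at day 45 was -0.61 ± 0.42 (SE, n = 3 and 3) and did not pass the test (adjusted p = 0.329). The SE of this fit pools the 5 groups, among them the 3 knockout mice, in which Otc ran from 55.0 to 243 FPKM. Without the knockout libraries the same difference had an SE of 0.16 and passed at day 45 (adjusted p = 0.0129) and at days 100 and 200 (-0.85, adjusted p = 0.00366). Fitted with the day 0 and day 45 libraries alone it also passed (adjusted p = 0.0159).

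Asl, which splits argininosuccinate into arginine and fumarate (chr5:130487128-130501002, mm9, minus strand, 16 exons), was 280, 197 and 237 FPKM at day 0, 162, 105 and 144 FPKM at day 21 and 143, 122 and 137 FPKM at day 45. The day 100 mouse had 100 FPKM and the day 200 mouse 230 FPKM. The day 21 and day 45 mice were below all 3 uninjected mice, whereas the day 200 mouse fell within their range. The log2 difference was -0.80 ± 0.33 (SE, n = 3 and 3, adjusted p = 0.17) at day 21 and -0.81 ± 0.33 (SE, n = 3 and 3, adjusted p = 0.0868) at day 45, neither past the test. At day 45 it passed without the knockout libraries (adjusted p = 0.0428), with the day 0 and day 45 libraries alone (0.0098) and under median ratio scaling (-1.09, adjusted p = 0.0438). With the mouse letter as a block it passed at day 45 too (adjusted p = 0.0337). At day 21 it passed with the day 0 and day 21 libraries alone (0.0463).

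Nags, the mitochondrial synthase of the Cps1 activator (chr11:102006827-102010791, mm9, plus strand, 7 exons), was 55.4, 45.9 and 55.7 FPKM at day 0, 47.8, 28.1 and 25.2 FPKM at day 21 and 38.5, 36.1 and 41.2 FPKM at day 45. The day 100 and day 200 mice had 31.8 and 45.0 FPKM. All 3 day 45 mice were below the uninjected mice, and at day 21 mouse A overlapped them. The log2 difference was -0.67 ± 0.26 (SE, n = 3 and 3, adjusted p = 0.143) at day 21 and -0.43 ± 0.26 (SE, n = 3 and 3, adjusted p = 0.262) at day 45. Without day 21 mouse A the first became -0.95 and passed (adjusted p = 0.0433), and with the day 0 and day 45 libraries alone the second passed (adjusted p = 0.0362).

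Counted by whether every mouse of a group lay below every uninjected mouse, the members were Otc, Asl and Gls2 at day 21 (3 of 7, beside 13.1% of all tested genes) and Otc, Asl, Nags and Gls2 at day 45 (4 of 7, beside 9.37%). No member lay above all uninjected mice at either time, and the matching share of all tested genes was not counted.

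More members passed once each library was corrected for GC content and transcript length, a step that also centres the libraries. At day 45 these were Otc (-0.78, adjusted p = 0.0393), Asl (-1.23, adjusted p = 0.00636), Nags (-0.87, adjusted p = 0.00476) and Gls2 (-1.97, adjusted p = 0.000923), 4 of 7 where 19.4% of the genes in that fit were lower. At day 21 they were Asl, Nags and Gls2 (3 of 7, beside 8.54%), and at days 100 and 200 they were Otc, Ass1, Asl, Nags and Gls2 (5 of 7, beside 22.9%).

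Cps1, Slc25a15 and Ass1 overlapped day 0 at both times. Cps1 (chr1:67169600-67277833, mm9, plus strand, 38 exons) was 716, 1091 and 1021 FPKM at day 0, 1857, 1185 and 876 FPKM at day 21 and 1042, 932 and 909 FPKM at day 45. The highest Cps1 level of all was that of day 21 mouse A, and the other day 21 mice were near the uninjected ones. The log2 difference at day 45 was 0.049 ± 0.37 (SE, n = 3 and 3, adjusted p = 0.952), with a 95% interval from -0.75 to 0.84, and it turned to -0.23 under median ratio scaling. The ornithine carrier Slc25a15 (chr8:23486026-23509093, mm9, minus strand, 7 exons) was 125, 100 and 117 FPKM at day 0 and 121, 110 and 104 FPKM at day 45. Its log2 difference was -0.027 ± 0.20 (SE, n = 3 and 3, adjusted p = 0.951), with a 95% interval from -0.46 to 0.41, the narrowest of the 7, and it turned to 0.27 under hepatocyte scaling. Ass1, which makes argininosuccinate (chr2:31325727-31376192, mm9, plus strand, 16 exons), was 53.7, 36.8 and 39 FPKM at day 0 and 29.1, 42.5 and 46.9 FPKM at day 45. Its log2 difference of -0.13 ± 0.33 (SE, n = 3 and 3, adjusted p = 0.833) turned to 0.16 under hepatocyte scaling.

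Between the times after Cre no member passed the test. Against day 21, the day 45 log2 differences of the 7 genes ran from -0.38 to 0.24 with a lowest adjusted p of 0.66, where 0.273% of all tested genes passed in either direction. With the mouse letter as a block no member passed either, and 1 gene in place of 31 passed over all tested genes. Without 1 mouse it was 180 genes with day 45 mouse A left out and 0 to 2 with day 45 mouse B or C or day 21 mouse A, B or C left out, and no member in any of these fits. Against day 45, days 100 and 200 joined gave differences from -0.51 to 0.48 with a lowest adjusted p of 0.819, where 0.220% of all tested genes passed, which is 25 genes. This was 133 genes without day 45 mouse B and 1 to 7 without day 45 mouse A or C, the day 100 mouse or the day 200 mouse, and again no member passed. At an unadjusted p under 0.05 the counts of members were also 0 and 0, beside 16% and 7.84% of all tested genes.

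The day 100 and day 200 mice differed from each other. All 7 members were lower at day 100 than at day 200, as were 34.8% of all tested genes, and 5 of 7 (Cps1, Otc, Ass1, Asl and Slc25a15) had their lowest level of the 11 floxed mice at day 100, as did 4.62% of all tested genes. Cps1 was 517 and 877 FPKM at days 100 and 200, Ass1 18.9 and 37.9 FPKM, and Slc25a15 83.3 and 140 FPKM. Asl and Gls2 were 2.30-fold and 2.36-fold higher at day 200. Each time is 1 mouse, so this difference has no replicate check, and both counts were chosen after the values were seen. The day 100 mouse also had the highest cholangiocyte marker sum and the lowest hepatocyte marker sum of the 11 floxed mice.

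In the knockout, Otc and Gls2 were lower than at day 0, 2 of 7 members where 14.5% of all tested genes passed in that direction, and no member was higher where 19.3% passed. The lower share was 4.89% to 7.87% without day 0 mouse B or C or knockout mouse A or B, and 30.7% without knockout mouse C. The higher share was 9.47% to 11.8% without day 0 mouse B or knockout mouse A or B, and 31.7% without knockout mouse C. Every knockout mouse was below every uninjected mouse for the same 2 genes (2 of 7, beside 13.3% of all tested genes). At an unadjusted p under 0.05 the count was 3 of 7, beside 47.3% of all tested genes, and with the GC correction Otc, Nags and Gls2 were lower, 3 of 7 beside 23.9% of the genes in that fit. The median log2 difference of the 7 members was -0.35, beside 0.016 over all tested genes. This member median was -0.55 without knockout mouse A, beside 0.035, and -0.73 with the GC correction, beside -0.073. Gls2 was 66.0, 56.7 and 73.2 FPKM in knockout mice A, B and C, so that mouse C, which did not share the GC pattern of A and B, was also below all uninjected mice. Its log2 difference was -1.15 ± 0.27 (SE, n = 3 and 3, adjusted p = 0.00841), it passed without each mouse in turn, and it was -1.63 after correction for GC content and transcript length (adjusted p = 0.00187). Mouse C alone gave -0.98 (adjusted p = 0.172).

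Otc was 55.0, 63.4 and 243 FPKM in knockout mice A, B and C. Mice A and B were far below every other library, and mouse C lay between the day 21 and day 45 means. The log2 difference was -1.72 ± 0.42 (SE, n = 3 and 3, adjusted p = 0.00991), with -2.49 and -2.29 in mice A and B and -0.37 in mouse C. Otc has a GC content of 41.1%, lower than all but 6.95% of the tested genes with a transcript, and genes of its GC decile had a median of -1.11 in mouse A, -0.89 in mouse B and 0.094 in mouse C. Corrected for GC content and length, the difference was -1.19 (adjusted p = 0.00498). With mouse C alone it was -0.37 (adjusted p = 0.371), without mouse B -1.43 (adjusted p = 0.0548), and with the day 0 and knockout libraries alone the call was lost (adjusted p = 0.0851).

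Cps1 was 350, 400 and 898 FPKM in knockout mice A, B and C, with a difference of -0.89 ± 0.37 (SE, n = 3 and 3, adjusted p = 0.0764). Ass1 was 101, 71.6 and 45.2 FPKM, with a difference of 0.69 ± 0.33 (SE, n = 3 and 3, adjusted p = 0.122). In both genes mouse C was within the day 0 range, with differences of -0.046 and 0.084 (adjusted p = 0.966 and 0.933), and mice A and B were outside it, and without mouse C both passed (-1.31, adjusted p = 0.00344, and 0.99, adjusted p = 0.0188), as did 62.4% of all tested genes. Ass1 was above the median of its GC decile by 0.76 and 0.28 on the log2 scale in mice A and B, and its difference after the GC correction was 0.21 (adjusted p = 0.522).

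Of the knockout mice, C had the lowest level of Asl and Nags, both richer in GC than Otc and Cps1, and of Ass1. Gls2, richer in GC than Asl, was highest in mouse C. Asl was 286 and 201 FPKM in knockout mice A and B and 128 FPKM in mouse C, and Nags was 51.9, 45.3 and 28.9 FPKM. Mouse C was within the day 45 range for Asl and below it for Nags. The differences from day 0 were -0.27 ± 0.33 (SE, n = 3 and 3, adjusted p = 0.522) for Asl and -0.35 ± 0.26 (SE, n = 3 and 3, adjusted p = 0.3) for Nags. Mouse C alone differed from day 0 by -0.87 for Asl and -0.83 for Nags (adjusted p = 0.223 and 0.149). After the GC correction of all 3 mice Asl was -0.73 (adjusted p = 0.0535) and Nags -0.95, which passed (adjusted p = 0.00279). Slc25a15 was 101, 78.8 and 114 FPKM, with a difference of -0.23 ± 0.20 (SE, n = 3 and 3, adjusted p = 0.384), and of 0.0076 with mouse C alone (adjusted p = 0.991).

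**Figure D3:**
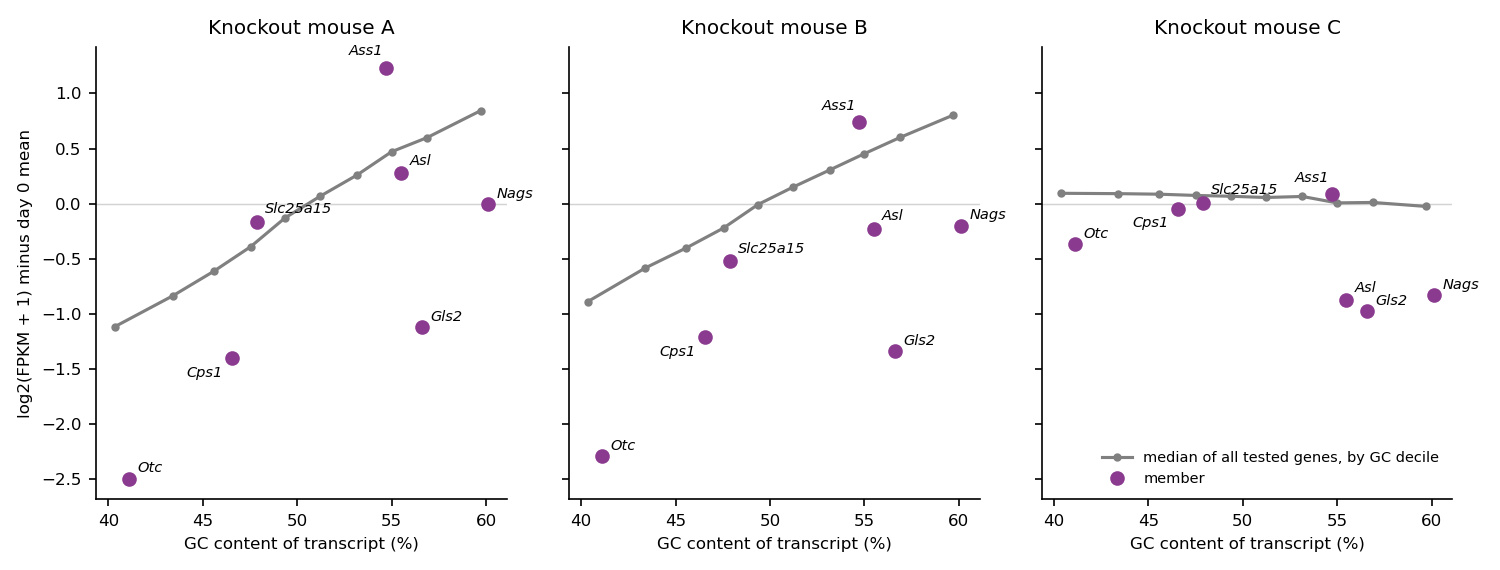
Difference of log2(FPKM + 1) from the day 0 mean (vertical axis) against the GC content of the longest transcript in percent (horizontal axis) for the 7 genes in each knockout mouse, with a grey line for the median of all tested genes in each decile of GC content. The grey line climbs from -1.11 to 0.84 in mouse A and stays near 0 in mouse C, and Gls2 differs from it by -1.72, -1.94 and -0.99 in mice A, B and C.

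Against day 45, no member passed the test in the knockout, where 9.44% of all tested genes passed in either direction, and 3 of 7 had an unadjusted p under 0.05, beside 36.4% of all tested genes. The differences ran from -1.10 for Otc to 0.82 for Ass1, with a lowest adjusted p of 0.0851. Under hepatocyte scaling Cps1 (-1.09, adjusted p = 0.0371) and Otc (-1.26, adjusted p = 0.0358) were lower, 2 of 7 where 26.9% of all tested genes were lower, a share near that of the members. The share of all tested genes fell to between 2.03% and 3.72% without any 1 of day 45 mice A, B and C and knockout mice A and B, and no member passed. Without knockout mouse C 4 of 7 passed, beside 52.2% of all tested genes. With mouse C as the only knockout mouse the median log2 difference of the members was 0.035, beside -0.16 over all tested genes.

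Genes around the cycle were described from lists of related function. Of the 16 tested ammonia and glutamine genes, 2 rose at day 45 and 1 fell, where 23.7% and 2.99% of all genes did so. The neutral amino acid transporter Slc1a4 rose by 2.05 ± 0.34 (SE, log2, adjusted p = 0.00141), from 1.18 to 4.42 FPKM at day 0 to 10.7 to 17.8 FPKM. The ammonia channel Rhbg rose by 1.35 (adjusted p = 0.0151), from 4.13 to 6.37 FPKM to 8.51 to 25.2 FPKM. The asparaginase Aspg fell by 1.35 (adjusted p = 0.00105), from 62.0 to 66.0 FPKM to 20.8 to 31.7 FPKM. Glul, which uses ammonia, was 294 to 458 FPKM at day 0 and 420 to 627 FPKM at day 45, an overlap, with a difference of 0.51 (adjusted p = 0.159). Car5a, which supplies bicarbonate to Cps1, was 56.4 to 75.7 FPKM at day 0 and 44.4 to 55.4 FPKM at day 45 (-0.40, adjusted p = 0.337) and was lower in the knockout (-1.10, adjusted p = 0.0112), at 33.0, 27.5 and 28.6 FPKM in mice A, B and C.

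Of the 19 tested arginine and ornithine genes, 5 rose at day 45, a share near the 23.7% of all tested genes that did, and 14 did not pass. Oat, which routes ornithine away from the cycle, rose by 1.64 ± 0.27 (SE, log2, adjusted p = 0.00131), from 449, 412 and 719 FPKM at day 0 to 1710, 1909 and 1229 FPKM, without overlap. It had already risen by 1.04 at day 21 (adjusted p = 0.0355) and was 1.29 above day 0 at days 100 and 200 (adjusted p = 0.00606), while its knockout difference of 0.69 did not pass (adjusted p = 0.0636). The arginine carrier Slc7a2 rose by 0.95 (adjusted p = 0.00769), Gatm, which uses arginine to make guanidinoacetate, by 0.85 (adjusted p = 0.0138), and the proline and ornithine synthesis gene Aldh18a1 by 0.97 (adjusted p = 0.0297) from levels under 1 FPKM. Slc25a13, the mitochondrial aspartate carrier that feeds Ass1, did not pass at day 45 (0.018, adjusted p = 0.975) and was lower in the knockout (-0.95, adjusted p = 0.0169). It was 34.6, 36.6 and 81.7 FPKM in knockout mice A, B and C, beside 87.3 to 94.7 FPKM at day 0, so mouse C was near the uninjected mice. Slc7a1, with at most 2.35 FPKM, had a mean under the filter and was not tested.

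Of the 34 tested genes of amino acid breakdown, 8 fell at day 45, where 2.99% of all tested genes did, and 26 did not pass, with a median log2 difference of -0.44. The counts were 2, 12 and 13 lower and 0 higher at day 21, at days 100 and 200 and in the knockout, where 1.42%, 3.21% and 14.5% of all tested genes were lower. Of the 13 lower in the knockout, 11 were below all uninjected mice in mouse C too. The 13 were picked by a fit that held mouse C, and the matching share of all tested genes was not counted. With mouse C as the only knockout mouse the list median was -0.34, beside 0.055 over all tested genes. Of 4 genes of histidine breakdown in the list 3 fell. The third enzyme of the route, Amdhd1, fell by 2.13 (adjusted p = 0.00011), from 77.7 to 103 FPKM to 17.3 to 25.2 FPKM, and the first enzyme, the histidine ammonia-lyase Hal, by 1.85 (adjusted p = 0.0028). Uroc1, the second enzyme, named like Ftcd after the values were seen, fell by 0.71 (adjusted p = 0.0325), and Ftcd, the last, did not pass (-0.42, adjusted p = 0.148). Afmid, of the tryptophan pathway, fell by 1.22 (adjusted p = 0.00492), and Qdpr, which regenerates the cofactor of phenylalanine hydroxylase, by 0.98 (adjusted p = 0.00254).

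Of the 11 tested periportal markers 3 fell at day 45, beside 2.99% of all tested genes, namely the glucose-6-phosphatase G6pc (-2.59, adjusted p = 0.00654), Hal and the apolipoprotein Apof (-0.67, adjusted p = 0.0204). The 8 that did not pass went both ways, for instance Cyp2f2 at -0.77 and Hsd17b6 at 0.64. Of the 12 tested pericentral markers 4 rose, beside 23.7% of all tested genes, namely the cytochromes Cyp2a5 (2.26, adjusted p = 0.00367) and Cyp1a2 (1.02, adjusted p = 0.00977) besides Oat and Rhbg, which also stand in the lists above, and 8 did not pass. Of the 14 tested regulators of these genes 14 did not pass at day 45 or at day 21, and 1 was lower at days 100 and 200. In the knockout 2 were lower and 1 higher, beside 14.5% and 19.3% of all tested genes, shares no smaller than those of the list. They were the glucocorticoid receptor Nr3c1, the bile acid receptor Nr1h4 and the C/EBP factor Cebpb, named after their values were seen. In all 3 mouse C lay within the day 0 range, for instance at 11.4 FPKM for Cebpb beside 101 and 118 FPKM in mice A and B. With mouse C as the only knockout mouse the median of the 14 regulators was -0.038. At day 45 the medians of the periportal, pericentral and regulator lists were -0.41, 0.55 and -0.12, beside 0.20 over all tested genes.

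**Figure D4:**
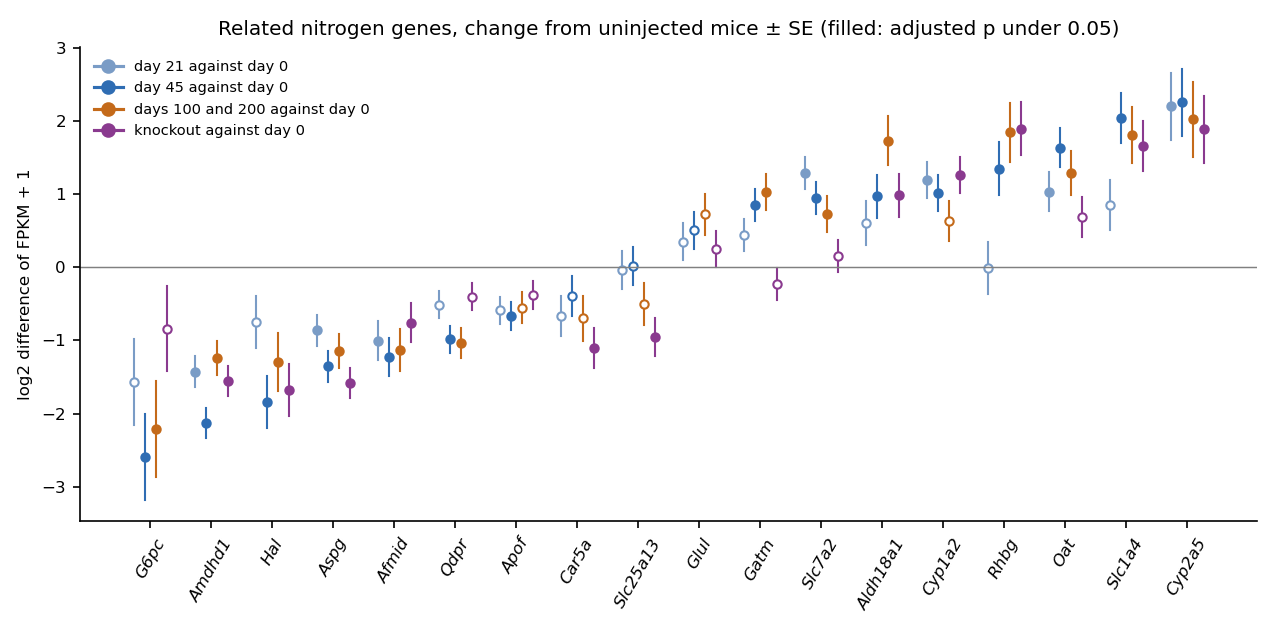
log2 difference of FPKM + 1 from the uninjected mice ± SE (vertical axis) for 18 genes related to nitrogen handling and liver zonation (horizontal axis, ordered by the day 45 value) in the 4 comparisons with day 0, with filled points for an adjusted p under 0.05. Amdhd1 (-2.13) and G6pc (-2.59) stand at the low end and Slc1a4 (2.05) and Cyp2a5 (2.26) at the high end at day 45.

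The 7 members did not share a single pattern over the 14 libraries, which differ in group and in GC bias. Pearson correlations of log2(FPKM + 1) between members, as a description, ran from 0.859 for Cps1 and Otc to -0.542 for Otc and Ass1. Asl correlated with Nags at 0.83, with Gls2 at 0.684 and with Ass1 at 0.662, whereas Ass1 and Gls2 correlated at 0.161. Among the 5091 symbols averaging 10 FPKM or more, the 2 most like Gls2 were Amdhd1 (0.942) and Amy1 (0.902), Echdc1 (0.990) was among those most like Otc, and those most like Cps1 were Dmgdh (0.916) and Zcchc24 (0.889). Ass1 was most like Gnmt (0.943) and BC002163 (0.857), Asl like Atp5e (0.933) and 2310039H08Rik (0.929), Nags like Galt (0.934) and Txn2 (0.925), and Slc25a15 like Tomm7 (0.763) and Cox16 (0.729).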

How the data were processed

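Liver RNA was poly-A purified, and paired-end TruSeq libraries were sequenced. The authors aligned reads to mm9 with TopHat and deposited FPKM values made with Cufflinks 2.2.1 under quartile normalisation, with ribosomal, snoRNA and mitochondrial sequences removed. MicroRNA reads were aligned with Bowtie 0.12.7 and deposited as RPM (depth-scaled reads) with 1 added, which was subtracted here. Versions are from the submitters' processing notes.

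FPKM of rows sharing a symbol were summed and tested on log2(FPKM + 1) with limma 3.58.1 in R 4.3.3, in 1 fit of 5 groups (days 100 and 200 joined) over symbols averaging 1 FPKM or more, two-sided, with Benjamini-Hochberg adjustment per comparison and a threshold of 0.05. A fold change on this scale understates that of low genes. The fit was tested on simulated data. Depth was estimated from the steps of low FPKM values and the transcript lengths. GC content and length came from the longest GENCODE M1 transcript, held by 97.7% of tested genes. The GC correction subtracts splines of both from each library and also centres it.

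Of the 8 members chosen by name, 1 is not reported here, nor are 3 other genes that the rules below would name, and counts over the members and the related lists leave these out. Named genes were the members, up to 4 genes of each related list with the largest day 45 change among those past the threshold, further genes of ammonia and arginine metabolism (Glul, Slc7a1, Oat, Car5a and Slc25a13), and the 2 genes most like each member. Outside this rule, Uroc1, Ftcd, Nr3c1, Nr1h4, Cebpb, Cyp2f2 and Hsd17b6 were named after their values were seen. Members and lists were chosen with earlier results of these data known. Nothing says that mice of 1 letter are related. Deviations of same-letter mice correlated above 0.1 in all 3 pairs of day 21 with day 45 (0.272, 0.236 and 0.501) but in no other pair of groups, for instance 0.195, -0.327 and -0.447 for day 0 with day 45, so the block is given beside the result for day 45 against day 21. Alternatives changed the pseudocount, filter, scaling, libraries fitted, block and base composition.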

Additional observations from a re-analysis of the deposited data

How the results depend on the processing

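Of 798 values of single members under the alternatives, 699 kept their direction and their side of the threshold, 16 lost and 31 gained significance and 52 changed sign. The cause of these changes was not tested, other than that fits with fewer mice hold less information. The fit without the knockout libraries, the GC correction and the fits with knockout mouse C as the only knockout mouse were chosen after seeing the data. The number of members called, all of them lower in the fits named before those that leave out 1 mouse, was 2 at day 21, 4 at day 45 and 1 in the knockout with only the groups compared in the fit, where 3.29%, 5.01% and 2.46% of all tested genes were lower. It was 3, 4 and 5 at day 21, day 45 and days 100 and 200 with the GC correction (8.54%, 19.4% and 22.9% of the genes in that fit), and 3 and 2 at day 45 and days 100 and 200 without the knockout libraries (5.87% and 5.76%). It was 2 at day 45 under median ratio scaling (7.67%), and 0 at days 100 and 200 (1.14%) and 2 in the knockout against day 45 (26.9%) under hepatocyte scaling. With the letter as a replicate block it was 2 at day 45 (2.54%), where Asl passed (adjusted p = 0.0337), and the block changed no other call of a member. The median log2 difference of the members from day 0 was -1.12 with the day 100 mouse alone and -0.16 with the day 200 mouse alone. It was -0.37 with knockout mouse C alone and -0.47 with the GC correction as well. Leaving out 1 mouse gave 0 to 2 calls at day 21 and 1 at day 45, where 0.361% to 1.26% and 1.28% to 2.30% of all tested genes were lower. Without 1 day 0 mouse it gave 0 to 1 at days 100 and 200 (2.15% to 2.43% lower). It gave 1 to 4 in the knockout against day 0 and 0 to 4 against day 45, where 14.4% to 62.4% and 2.03% to 52.2% passed in either direction.

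Calls over the 6 related lists, summed over the 7 comparisons, were 96, and were 176 with the GC correction, 61 with the replicate block, which leaves out days 100 and 200, and 4 to 93 without 1 mouse, counted over the comparisons that use it. They were 4 with the day 200 mouse alone, 5 with knockout mouse C alone and 11 for that mouse with the GC correction. Over all tested genes, median ratio scaling moved the median log2 difference from day 0 by -0.062, -0.24, -0.34 and -0.022 at day 21, day 45, days 100 and 200 and in the knockout, and hepatocyte scaling by 0.16, 0.26, 0.26 and 0.12. The share of calls that were higher was 81.4%, 88.8%, 89.8% and 57.2% in these comparisons, 76.3%, 66.8%, 63.6% and 52.8% under median ratio scaling, 94.8%, 97.3%, 97.4% and 72.0% under hepatocyte scaling, and 51.0%, 47.1%, 44.6% and 43.8% with the GC correction. In the knockout against day 45 it was 12.8%, and 46.2%, 4.2% and 47.9% under these 3 settings. The number of genes called at day 21, 865, was 1774 with only the groups compared, 1931 with the GC correction, 1912 without the knockout libraries and 470 with the block. At days 100 and 200 it was 3592, and 5816 without the filter and 1630 for the day 200 mouse alone, and in the knockout 3833, and 1109 with only the groups compared, 671 with mouse C alone and 1227 with the GC correction as well. For the knockout against day 45 it was 1072, and 413 and 3188 under median ratio and hepatocyte scaling, 63 with only the groups compared, 447 with the block, 605 with the GC correction and 296 and 205 with mouse C alone, without and with it. For day 45 against day 21 it was 31, and 58 with a pseudocount of 0.1, 10 without the filter, 2 under median ratio scaling, 3 with only the groups compared, 1 with the block and 773 without the knockout libraries. For days 100 and 200 against day 45 it was 25, and in the same order 2 and 228, then 0 with only the groups compared, 2 and 7 for the day 100 and day 200 mice alone, 74 with the GC correction and 67 without the knockout libraries.

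Sign changes, all of members that had not passed and none of Gls2 against day 0, gave these log2 differences. Under hepatocyte scaling Ass1 and Slc25a15 were 0.076 and 0.0097 at day 21 and 0.16 and 0.27 at day 45, Slc25a15 was 0.23 at days 100 and 200, Ass1 and Asl were 0.086 and 0.090 for day 45 against day 21, and Nags was -0.072 for the knockout against day 45. Under median ratio scaling Cps1 was -0.23 at day 45, and Slc25a15 was -0.045 for day 45 against day 21 and 0.054 for the knockout against day 45. With the GC correction Cps1 was -0.21 at day 45, Nags -0.20 for day 45 against day 21, and Nags -0.071 and Slc25a15 0.17 for the knockout against day 45. With the day 200 mouse alone Slc25a15 was 0.30 against day 0, and Otc, Nags and Slc25a15 were 0.034, 0.22 and 0.33 against day 45, and with the day 100 mouse alone Asl and Gls2 were -0.41 and -0.13 against day 45. With knockout mouse C alone Slc25a15 was 0.0076 against day 0, and Otc, Asl, Nags and Slc25a15 were 0.25, -0.062, -0.40 and 0.035 against day 45, and with the GC correction as well Cps1, Otc and Slc25a15 were 0.023, 0.30 and 0.17.

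Without 1 mouse in turn the values ran from -0.31 to 0.081 for Ass1 at day 21, from -0.14 to 0.17 for Cps1, -0.27 to 0.068 for Ass1 and -0.12 to 0.042 for Slc25a15 at day 45, from -0.44 to 0.30 for Slc25a15 at days 100 and 200, and from -0.55 to 0.025 for Asl in the knockout. They ran from -0.21 to 0.19 for Ass1 and -0.19 to 0.12 for Asl at day 45 against day 21. At days 100 and 200 against day 45 they ran from -0.42 to 0.33 for Slc25a15, -0.27 to 0.22 for Nags, -0.50 to 0.034 for Otc, -0.41 to 0.78 for Asl and -0.13 to 1.09 for Gls2, and in the knockout against day 45 from -0.088 to 0.32 for Nags. Groups held at most 3 mice, days 100 and 200 were 1 mouse each, and counting error was small at this depth for the members.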
